A study of Mus musculus with 30 samples.

Results

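The imprinted growth genes followed here are Plagl1, Grb10, Cdkn1c, Phlda2, Igf2r, Mest, Peg3, Peg10, Dlk1 and H19, 10 genes chosen by name. Each was found through the gene symbol of its probe set on the array. Of the 10, 9 had a probe set, 1 each, and all 9 passed the filter on low signals, among 15180 genes tested of 19937 with a probe set. H19 had no probe set under its symbol in the annotation used here and has no values. The levels came from mouse primordial germ cells, the precursors of eggs and sperm, which were sorted from dissociated gonads by the germ cell reporter Oct4(deltaPE)-GFP. Each sample was RNA of 500 cells, amplified by PCR of the whole transcriptome and read on 1 of 30 Affymetrix arrays, 3 in each of 10 groups. The groups were Ring1+;Rnf2+ cells, called control, of both sexes at embryonic days E11.5, E12.5 and E13.5, and Ring1+;Rnf2delta cells, called Rnf2delta, of both sexes at E11.5 and E12.5. Every group carried the GFP reporter and a mixed background of 129/Sv and C57BL6J. Rnf2 and Ring1 encode the ubiquitin ligases of PRC1 (Polycomb repressive complex 1), and the series asked how PRC1 times sexual differentiation of female germ cells. The labels used here do not name the Cre driver or the time of deletion, nor whether a group's arrays stem from different embryos; the p-values thus measure only the spread between these samples, and that spread may be technical.

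An imprinted gene is transcribed mainly from the copy inherited from 1 parent. DNA methylation marks laid down in the egg or the sperm set the parental copies apart. Primordial germ cells erase these marks while they colonise the gonad, and the marks are set again later according to the sex of the embryo. Many imprinted genes act on fetal and placental growth. Cdkn1c, Phlda2, Grb10 and Igf2r, expressed from the maternal copy in most tissues, restrain growth, whereas Mest, Peg3, Peg10 and Dlk1 are expressed from the paternal copy. Plagl1 is also paternally expressed and encodes a zinc finger transcription factor. The arrays read RNA of both copies together, so no value below refers to 1 parental allele.

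RefSeq promoter windows, each running from 250 bases before to 50 after a transcript start on assembly GRCm38.p6, were found for 7 of the 10 genes. They are shown for 4 genes whose levels carry the results below, because CpG-rich promoters are common sites of Polycomb binding. The windows follow transcript starts and were not chosen as sites of imprint marks. The strand written is the transcribed one, 5′ to 3′, and capitals mark every CG (a motif that reads the same on both strands).
Plagl1, chr10:13090582-13090881, plus strand: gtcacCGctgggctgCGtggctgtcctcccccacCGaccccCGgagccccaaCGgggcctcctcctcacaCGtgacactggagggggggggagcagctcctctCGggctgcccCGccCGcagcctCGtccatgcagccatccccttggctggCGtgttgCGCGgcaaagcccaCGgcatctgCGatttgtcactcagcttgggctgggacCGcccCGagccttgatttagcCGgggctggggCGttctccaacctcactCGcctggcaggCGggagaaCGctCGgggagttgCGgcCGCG
Grb10, chr11:12037371-12037670, minus strand: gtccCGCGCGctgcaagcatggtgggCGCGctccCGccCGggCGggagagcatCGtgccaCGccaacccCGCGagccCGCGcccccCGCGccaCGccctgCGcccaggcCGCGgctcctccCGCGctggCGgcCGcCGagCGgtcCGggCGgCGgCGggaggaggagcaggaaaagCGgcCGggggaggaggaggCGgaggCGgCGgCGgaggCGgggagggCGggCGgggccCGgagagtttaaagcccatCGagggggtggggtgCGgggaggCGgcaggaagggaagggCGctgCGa
Phlda2, chr7:143502475-143502774, minus strand: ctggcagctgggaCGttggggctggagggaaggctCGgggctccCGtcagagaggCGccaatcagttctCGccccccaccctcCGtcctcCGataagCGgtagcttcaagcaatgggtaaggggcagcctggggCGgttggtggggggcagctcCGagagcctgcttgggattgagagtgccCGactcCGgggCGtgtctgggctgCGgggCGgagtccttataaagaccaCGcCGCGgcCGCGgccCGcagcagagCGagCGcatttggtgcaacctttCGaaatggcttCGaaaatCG
Mest, chr6:30737800-30738099, plus strand: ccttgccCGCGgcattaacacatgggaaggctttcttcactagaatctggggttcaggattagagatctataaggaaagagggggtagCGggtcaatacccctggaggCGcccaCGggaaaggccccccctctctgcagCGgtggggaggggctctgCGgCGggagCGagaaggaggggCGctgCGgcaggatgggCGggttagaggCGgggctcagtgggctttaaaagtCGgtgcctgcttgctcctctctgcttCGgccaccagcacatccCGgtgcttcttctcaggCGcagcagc
The windows held 26 CGs for Plagl1, 45 for Grb10, 26 for Phlda2 and 17 for Mest. Over all 32851 promoter windows of 300 bases the median was 7 CGs, with quartiles of 3 and 20. The Igf2r window held 34, Peg3 13 and Dlk1 9. A second Grb10 start had 9 CGs and another Mest start had 8. Across all windows, 37.9% held 13 or more. These counts describe the letters of the windows; neither methylation nor PRC1 binding was measured in these files.

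All 6 arrays of E12.5 females differed from the rest in how well replicates agreed. Each correlated with its own group at a mean of 0.964 to 0.978 (across genes, which are not independent replicates), where the other arrays gave 0.983 to 0.99. The Rnf2 probe set was below control in the mean of the 4 genotype comparisons by 0.65 ± 0.09 on the log2 scale (SE; limma adjusted p = 1.53e-05). Its differences were -0.61 in E11.5 females (adjusted p = 0.199), -0.31 in E11.5 males (0.802), -0.63 in E12.5 females (0.0294) and -1.03 in E12.5 males (0.00224). Whether this probe set lies within the deleted exons is not known here, and if it does not, its level checks nothing. Ring1 differed by -0.13 in that mean (adjusted p = 0.313). The 10 germ cell markers averaged 6.89 to 7.41 over the arrays, and each of the 10 exceeded the 40th percentile of its array on all 30. Lists of supporting, interstitial, steroidogenic and macrophage markers averaged 1.94 to 3.16, where the median of all probe sets was 2.52 to 2.66 per array. Of these, Cited2 (mean 4.23), Wnt4 (3.51), Tyrobp (3.47), Gata4 (3.22), Col1a1 (3.14) and Col1a2 (2.90) also exceeded the 40th percentile on all 30 arrays. Lum, Postn, Cyp11a1, Cyp17a1, Ptprc and Adgre1 did so on 0, and the others on some arrays. The endothelial list averaged 2.55 to 3.05, with Pecam1 at 6.71 in the mean of all arrays and the other 6 genes at 1.81 to 2.25. The mesonephric list averaged 3.24 to 3.98, above the array median throughout, with Epcam, which germ cells also express, at 6.36, Lhx1 at 3.94 and Krt8 at 3.79. On 1 Rnf2delta E12.5 male array the erythroid list averaged 4.9. In the mean genotype comparison none of the 11 supporting, 2 steroidogenic, 3 erythroid and 3 macrophage markers tested was called, and Meis1 rose among 9 interstitial ones. Pecam1, which germ cells also express, fell among 5 endothelial markers, and of 6 mesonephric ones Epcam rose and Lhx1 fell. The part of other cells in the results below was not tested. The mean signal of 80 small RNA genes also moved with genotype, stage and sex. It was 4.68 to 4.74 on E12.5 female control arrays and 4.27 to 4.33 on Rnf2delta ones, 4.43 to 4.57 against 4.29 to 4.33 in E11.5 males and 4.42 against 4.31 to 4.34 in E12.5 males, with no overlap. In E11.5 females it was 4.40 to 4.49 against 4.31 to 4.44, with overlap. Among controls, E12.5 females lay above E12.5 males (4.42), E11.5 females (4.40 to 4.49) and E13.5 females (4.235 to 4.354), without overlap. The part of this signal in the genotype, stage and sex differences was not tested. In sorted bulk samples, fewer cells with a transcript and less of it per cell cannot be told apart.

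Averaged over both stages and sexes, Rnf2delta germ cells held more RNA of 7 of the 9 measured growth genes than controls did, and none was lower past the threshold (limma adjusted p under 0.05, over all genes tested). Cdkn1c rose by 0.86 ± 0.09 on the log2 scale (SE; adjusted p = 4.29e-08), a 1.81-fold difference, and Plagl1 by 0.81 ± 0.11 (7.02e-06). Peg10 rose by 0.72 ± 0.17 (0.00392), Grb10 by 0.65 ± 0.10 (1.9e-05), Phlda2 by 0.63 ± 0.20 (0.0378), Mest by 0.51 ± 0.11 (0.00313) and Dlk1 by 0.37 ± 0.12 (0.0368). Igf2r differed by 0.23 ± 0.09 (0.0991) and Peg3 by -0.17 ± 0.11 (0.398). Over all genes 10.3% were called in this comparison, 8.14% as higher. The median difference was 0.63 for the 9 genes and 0.01 for all genes. Because the genes were chosen with earlier results of these data known, these medians are no test of the set.

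Plagl1, Grb10, Cdkn1c and Mest kept these calls in each of the 32 alternatives run, among them the mean without any E12.5 female array (0.68, 0.58, 0.77 and 0.57). The Phlda2 call did not hold in a fit of the 8 genotype groups alone (adjusted p = 0.0633), with no filter on low signals (0.0516) and after quantile normalization (0.0505). Dlk1 lost its call in that fit (0.0661) and after quantile normalization (0.0652). Without the E12.5 female arrays Peg10 gave 0.57 (adjusted p = 0.0559), Phlda2 0.58 (0.121) and Dlk1 0.28 (0.129). Phlda2 also lost its call without any of 13 single arrays (adjusted p = 0.0559 to 0.0792), and Dlk1 without any of 14 (0.0549 to 0.0789). For Phlda2 these were, among E11.5 males, control replicates 2 and 3 and Rnf2delta replicate 1. Among E11.5 females they were control replicates 2 and 3 and Rnf2delta replicates 1 and 2, among E12.5 males control replicates 2 and 3 and Rnf2delta replicate 1, and among E12.5 females control replicate 1 and Rnf2delta replicates 2 and 3. For Dlk1 they were control replicates 1 and 3 and Rnf2delta replicate 2 of E11.5 males, and control replicate 1 and Rnf2delta replicates 2 and 3 of E11.5 females. At E12.5 they were control replicates 1 and 2 and Rnf2delta replicates 1 and 3 of males, and control replicates 1 and 3 and Rnf2delta replicates 2 and 3 of females.

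**Figure D1:**
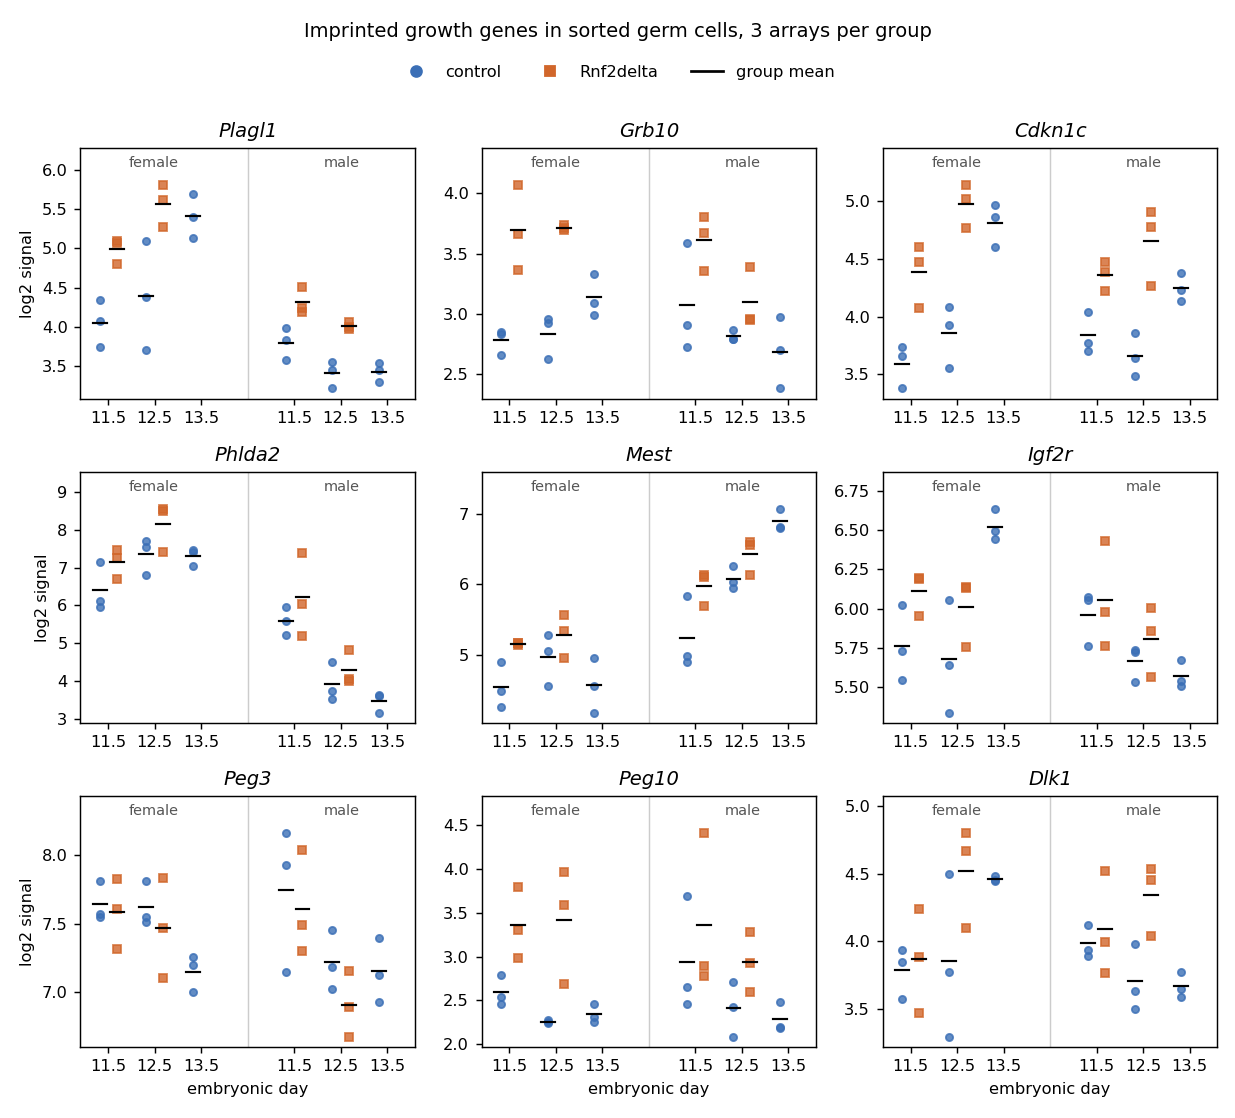
Log2 signal of the 9 measured growth genes (vertical axes, each on its own scale) by embryonic day (horizontal axes), with females left and males right in each panel. Each point is 1 array, blue for control and orange for Rnf2delta, and black bars are means of 3 arrays; for Plagl1 the 3 E11.5 female Rnf2delta arrays (4.80 to 5.10) lie above the 3 controls (3.74 to 4.34).

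Single comparisons called fewer of the 9 genes. In E11.5 females 3 were called, all higher, against 0.553% of all genes. None was called in males of that age, against 0.718%, though they had 4 of the 9 genes at an unadjusted p under 0.05, as did 1187 of all genes. In E12.5 females 4 were called, all higher, against 9.89%. E12.5 males had 1, against 0.962%. The 4 comparisons use different arrays. In each of them 8 of the 9 genes had a difference above 0, Peg3 being the exception, with a median of 0.74, 0.52, 0.79 and 0.37 in the order above. Over all genes the medians were 0.02, -0.002, 0.046 and 0.008. The 9 genes were chosen with earlier results of these data known. In E12.5 females 78.2% of all called genes were higher, and 66.8% after quantile normalization. In the same comparison 4 of the 10 germ cell markers fell, Dnd1 by 0.69, Pou5f1 by 0.65, Dppa3 by 0.56 and Prdm1 by 0.50, and the supporting cell marker Irx3 rose by 0.67. Lhx1 fell by 0.77 and Pecam1 by 0.50 in E12.5 females, Lhx1 fell by 0.97 and Epcam rose by 0.63 in E11.5 males, and Pecam1 fell by 0.66 in E12.5 males. The part of these genes, and of the lower small RNA signal of the Rnf2delta arrays, in the differences of the growth genes was not tested.

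Plagl1 was higher on every Rnf2delta array than on every control array of its stage and sex. How many of all genes separate in this way was not counted, so lack of overlap has no background, here or below. In E11.5 females controls read 3.74, 4.08 and 4.34 and Rnf2delta 4.80, 5.06 and 5.10, a rise of 0.93 ± 0.22 (SE; limma adjusted p = 0.0429). Leaving out an array ended the call for control replicate 1 (0.309) or 2 (0.132) and for Rnf2delta replicate 1 (0.0735), 2 (0.166) or 3 (0.244). It was also lost with no filter on low signals (0.0567) and after quantile normalization (0.0634). In E12.5 females controls spread widely, at 4.38, 5.09 and 3.71, and Rnf2delta arrays read 5.61, 5.80 and 5.27. The rise of 1.17 ± 0.22 (adjusted p = 0.000996) used the spread shared by all groups; with these 6 arrays alone in the fit the adjusted p was 0.187. Males lay lower. At E11.5 they read 3.58, 3.84 and 3.99 in controls and 4.25, 4.19 and 4.51 in Rnf2delta, a difference of 0.52 ± 0.22 (adjusted p = 0.518). At E12.5 they read 3.22, 3.45 and 3.56 against 4.0, 3.97 and 4.07 (0.60 ± 0.22, adjusted p = 0.317).

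Grb10 encodes an adaptor that dampens signalling from insulin and insulin-like growth factor receptors. Its control arrays lay between 2.38 and 3.59. In E11.5 females they read 2.85, 2.66 and 2.83, and Rnf2delta arrays 4.07, 3.67 and 3.36, a rise of 0.92 ± 0.19 (SE; limma adjusted p = 0.0166). It was lost without control replicate 1 (0.0561) or 2 (0.0936) and without Rnf2delta replicate 1 (0.165) or 2 (0.0527). E12.5 females gave 2.92, 2.63 and 2.96 in controls and 3.71, 3.70 and 3.74 in Rnf2delta. Here the groups again did not overlap and the 3 Rnf2delta arrays lay within 0.04 of each other. The rise was 0.88 ± 0.19 (adjusted p = 0.00383), but 0.102 with array weights and 0.0775 with these arrays alone. In E11.5 males 1 control array (3.59) reached into the Rnf2delta range of 3.36 to 3.80 and the difference was 0.53 ± 0.19 (adjusted p = 0.306). E12.5 males read 2.79, 2.79 and 2.87 against 3.39, 2.96 and 2.95, a difference of 0.29 ± 0.19 (0.797).

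Cdkn1c encodes p57, an inhibitor of cyclin-dependent kinases that stops cells in G1. Rnf2delta arrays exceeded control arrays without overlap at both stages and in both sexes, though the share of all genes that did so was not counted. In E12.5 males controls read 3.49, 3.64 and 3.86 and Rnf2delta 4.91, 4.77 and 4.26. The rise of 0.99 ± 0.17 (SE; limma adjusted p = 0.00162) stayed past the threshold in each of 14 alternatives, with values of 0.86 to 1.18. In E12.5 females the arrays read 3.93, 4.08 and 3.55 against 4.76, 5.02 and 5.13, a rise of 1.12 ± 0.17 (9.77e-05; 0.059 with these arrays alone). E11.5 females read 3.66, 3.73 and 3.38 against 4.60, 4.47 and 4.08, a rise of 0.79 ± 0.17 (0.0222). This was lost without control replicate 1 (0.0777) or 3 (0.151) and without Rnf2delta replicate 1 (0.17) or 2 (0.11), and was 0.0528 with these arrays alone. E11.5 males read 4.04, 3.77 and 3.70 against 4.22, 4.47 and 4.39, and the difference of 0.52 ± 0.17 did not pass (0.219).

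Phlda2, which encodes a PH domain protein that limits placental growth, was not called in any single genotype comparison. In E12.5 females controls read 6.80, 7.69 and 7.55 and Rnf2delta 7.4, 8.48 and 8.54 (0.79 ± 0.40; limma adjusted p = 0.215). E11.5 females read 7.14, 6.12 and 5.95 against 7.47, 7.26 and 6.71 (0.74 ± 0.40, adjusted p = 0.792). In E11.5 males the Rnf2delta arrays ran from 5.20 to 7.4 around controls at 5.22 to 5.97, and in E12.5 males 4.01 to 4.83 stood against 3.53 to 4.51. The groups overlapped in all 4 comparisons. Igf2r, the receptor that clears insulin-like growth factor II, lay between 5.34 and 6.43 in these 8 groups. Its differences were 0.35 and 0.33 (± 0.17) in E11.5 and E12.5 females and 0.09 and 0.14 in males, with overlap throughout and no call.

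Among the paternally expressed genes, Mest, which encodes a protein of the alpha/beta hydrolase family, had its largest genotype differences at E11.5. Males read 5.83, 4.89 and 4.97 in controls and 6.11, 5.69 and 6.13 in Rnf2delta (0.74 ± 0.23; limma adjusted p = 0.166). It was 0.0287 with array weights and 0.0238 without control replicate 1, where the difference was 1.04. In E11.5 females controls at 4.26, 4.89 and 4.49 lay below Rnf2delta at 5.16, 5.16 and 5.13 without overlap (0.61 ± 0.23, adjusted p = 0.412). At E12.5 the groups overlapped, with differences of 0.32 in females and 0.35 in males.

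Peg10, derived from a retrotransposon and needed for the placenta, had low signals. It exceeded the 40th percentile of its array on 24 of 30 arrays. In E12.5 females controls read 2.24, 2.28 and 2.25, all below that percentile of their own array (2.40, 2.31 and 2.33), and Rnf2delta read 2.69, 3.97 and 3.59, all above it. The control level was thus not set apart from background, and the difference is not the size of a measured fold. This difference of 1.16 ± 0.33 (SE; limma adjusted p = 0.0236) was 0.201 with array weights and 0.161 with these arrays alone. It was lost too without control replicate 1 (0.0551) or 3 (0.0512) and without Rnf2delta replicate 2 (0.126) or 3 (0.0626). E11.5 females read 2.79, 2.54 and 2.46 against 2.98, 3.79 and 3.30, with no overlap and a difference of 0.77 ± 0.33 (0.568). In males at both stages the arrays overlapped (0.42 and 0.53).

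Dlk1 encodes a transmembrane relative of the Notch ligands. It differed at E12.5 in both sexes by similar amounts, and neither passed with all arrays in the fit and no replicate block. Males read 3.50, 3.63 and 3.98 against 4.53, 4.04 and 4.46, without overlap (0.64 ± 0.23; limma adjusted p = 0.317). Females read 3.29, 4.5 and 3.77 against 4.10, 4.80 and 4.67 (0.67 ± 0.23, adjusted p = 0.0654). The female difference passed with a replicate block (0.0361) and with a block within stage and sex (0.0214). Without control replicate 2 of the E12.5 females, the highest control array, the difference was 0.99 and passed (0.00477). It also passed without Rnf2delta replicate 1, the lowest Rnf2delta array (0.88, 0.0349). At E11.5 the differences were 0.08 and 0.11. Peg3, a large zinc finger protein, had differences of -0.06 and -0.16 (± 0.22) in females at E11.5 and E12.5, and of -0.14 and -0.32 in males. Its arrays overlapped in each of them.

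**Figure D2:**
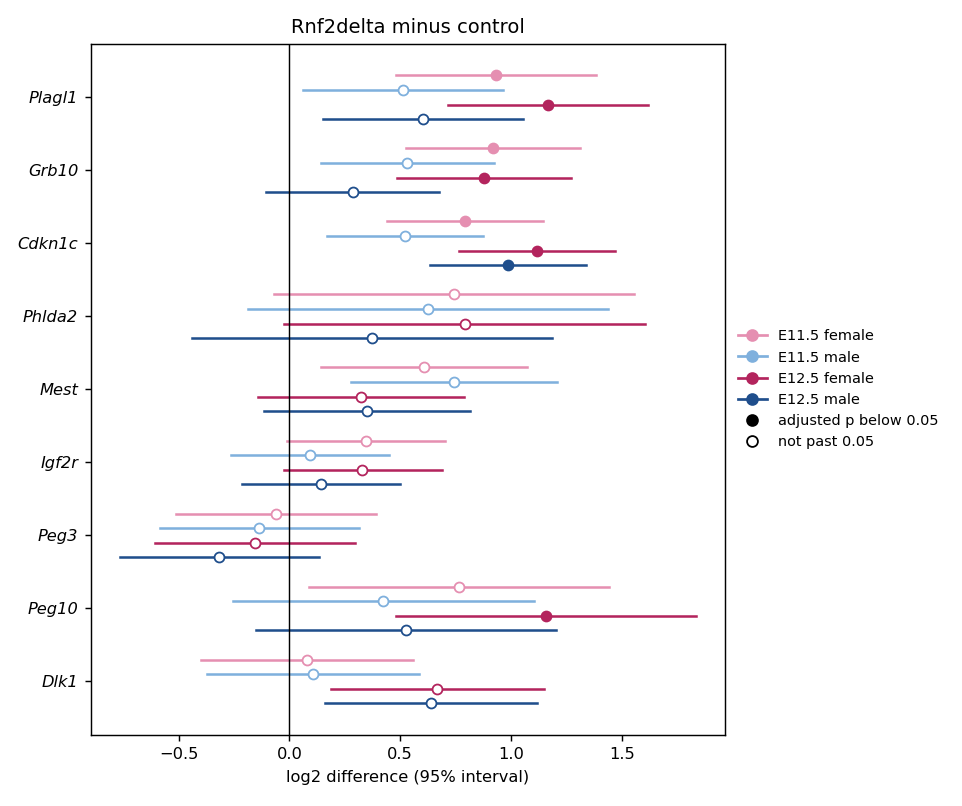
Difference in log2 signal, Rnf2delta minus control (horizontal axis), for each growth gene (vertical axis) in 4 comparisons of 3 against 3 arrays. Points are limma estimates, bars their 95% intervals and filled points have an adjusted p below 0.05; all points lie right of 0 except those of Peg3.

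None of the 9 genes was called in a test of whether the genotype difference itself varied with sex or stage (limma). The counts of all genes called were 0% for sex at E11.5, 0.296% for sex at E12.5, 0.145% for stage in females and 0% for stage in males. Only Grb10 at E12.5 reached an unadjusted p under 0.05 among the 9 genes in these tests, with a rise 0.59 larger in females than in males (95% interval 0.04 to 1.15, adjusted p = 0.331). The corresponding interval for Cdkn1c was -0.37 to 0.63, and that for Plagl1 -0.08 to 1.2. So a genotype difference called in 1 sex and not in the other is not shown to differ between them.

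In control germ cells several of these genes separated the sexes as development went on. The E12.5 control arrays serve both sex and stage comparisons, and the genotype comparisons above share their controls, so these values are not independent of each other. At E11.5 the sexes did not differ past the threshold in any of the 9 genes, against 0.25% of all genes called; Mest alone had an unadjusted p under 0.05, among 1281 of all genes. At E12.5 3 of the 9 were called, 2 higher in females and 1 lower, against 19.1%. The mean small RNA signal was also higher on E12.5 control female arrays (4.675 to 4.737) than on male ones (4.42), and its part was not tested. At E13.5 6 were called, 5 higher in females and 1 lower, against 16.3%. The median female minus male difference was -0.20, 0.15 and 0.56 at the 3 stages, and -0.03, -0.06 and 0.01 over all genes.

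Phlda2 separated the sexes most. Control females read 7.14, 6.12 and 5.95 at E11.5, 6.80, 7.69 and 7.55 at E12.5 and 7.47, 7.04 and 7.42 at E13.5. Control males read 5.97, 5.22 and 5.58, then 4.51, 3.53 and 3.75, then 3.64, 3.17 and 3.60. The sexes overlapped at E11.5 only. The female excess was 0.81 ± 0.40 at E11.5 (SE; limma adjusted p = 0.591), 3.42 ± 0.40 at E12.5 (6.88e-07), 10.7-fold, and 3.84 ± 0.40 at E13.5 (6.75e-08), 14.3-fold. In males Phlda2 fell by 1.66 ± 0.40 from E11.5 to E12.5 (adjusted p = 0.0196). This was lost without control replicate 1 (0.104) or 3 (0.0647) of the E11.5 males, or replicate 2 (0.101) or 3 (0.103) of the E12.5 males. In females the change from E11.5 to E12.5 was 0.95 ± 0.40 (0.0961; 0.0371 without E11.5 replicate 1) and from E12.5 to E13.5 it was -0.04.

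Mest moved the opposite way. Control males read 5.83, 4.89 and 4.97 at E11.5, 5.95, 6.02 and 6.26 at E12.5 and 6.81, 7.06 and 6.80 at E13.5. Control females read 4.26, 4.89 and 4.49, then 5.28, 5.05 and 4.55, then 4.56, 4.18 and 4.95. Females lay below males at E12.5 by 1.12 ± 0.23 (SE; limma adjusted p = 0.000766) and at E13.5 by 2.33 ± 0.23 (2.69e-08), and the sexes did not overlap at any of the 3 stages, although at E11.5 the highest female and the lowest male array both read 4.89. From E11.5 to E12.5 Mest rose in males by 0.84 ± 0.23 (0.0399). This call was lost without E11.5 replicate 2 (0.203) or 3 (0.185) and without E12.5 replicate 1 (0.0631), 2 (0.0945) or 3 (0.193). From E12.5 to E13.5 the male difference was 0.82 ± 0.23 (0.0806; 0.0132 with these arrays alone).

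Plagl1, Igf2r and Cdkn1c rose in control females from E12.5 to E13.5, as many other genes did. From E12.5 to E13.5 control females went from 4.38, 5.09 and 3.71 to 5.69, 5.14 and 5.39 for Plagl1, a rise of 1.01 ± 0.22 (SE; limma adjusted p = 0.0013, and 0.0664 with these arrays alone). Igf2r went from 5.34, 6.05 and 5.64 to 6.44, 6.63 and 6.49 (0.84 ± 0.17, adjusted p = 0.000781), and Cdkn1c from 3.93, 4.08 and 3.55 to 4.86, 4.96 and 4.60 (0.96 ± 0.17, 0.000191). The groups did not overlap for any of these genes. The 3 genes were those called in that interval in females, against 21.8% of all genes, 17% as higher. A count of 3 of 9 does not set these genes apart from that background. Dlk1 differed by 0.61 (adjusted p = 0.063), and by 0.93 without replicate 2 of the E12.5 females (0.0036). Over the same interval 5 of the 10 germ cell markers fell in females, Nanos3 by 0.74, Dppa3 by 0.66, Prdm1 by 0.47, Pou5f1 by 0.43 and Sall4 by 0.42, and none rose. The mesonephric marker Lhx1 fell by 0.83 there. The mean small RNA signal was 4.675 to 4.737 on E12.5 control female arrays and 4.235 to 4.354 on E13.5 ones. The part of these markers and of this signal in the changes of the growth genes was not tested. From E11.5 to E12.5 in females 0 of 9 were called, with 1 at an unadjusted p under 0.05 (Phlda2), against 18.8% of all genes. Plagl1 passed in that interval without replicate 3 of the E12.5 females (0.68, adjusted p = 0.0165). In males 2 were called from E11.5 to E12.5 (Phlda2 and Mest), against 2.62%. From E12.5 to E13.5 in males 0 were called, with 2 at an unadjusted p under 0.05 (Cdkn1c and Mest), against 1.1%. Cdkn1c differed by 0.59 there (adjusted p = 0.1), and passed with array weights (0.61, 0.0162).

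At E13.5 Plagl1 read 5.14 to 5.69 in control females and 3.30 to 3.55 in control males, an excess of 1.97 ± 0.22 (SE; limma adjusted p = 2.49e-07), 3.93-fold. At E12.5 its female excess was 0.99 ± 0.22 (0.00184; 0.0749 with these arrays alone). Igf2r at E13.5 was 0.95 ± 0.17 higher in females (0.000267), with males at 5.51 to 5.67. Dlk1 read 4.45 to 4.48 in E13.5 females and 3.58 to 3.77 in males (0.80 ± 0.23, 0.0177). Dlk1 was lost without male replicate 1 (0.0501) or 3 (0.0624) or female replicate 1 (0.0508). Cdkn1c was 0.56 ± 0.17 higher in females (0.0232), lost without male replicate 1 (0.0627) or 3 (0.093) or female replicate 1 (0.0731) or 2 (0.111). Grb10 (0.45, 0.114), Peg10 (0.05) and Peg3 (0.00) did not pass. The Amh transcript, made by male supporting cells, was 0.82 lower in E13.5 females (adjusted p = 0.0301), at most 3.83 on any array. Of the mesonephric markers Lhx1 was lower in these females by 2.10 and Epcam by 0.88, and of the 10 germ cell markers 3 were lower and 2 higher. The part of these in the sex differences was not tested.

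**Figure D3:**
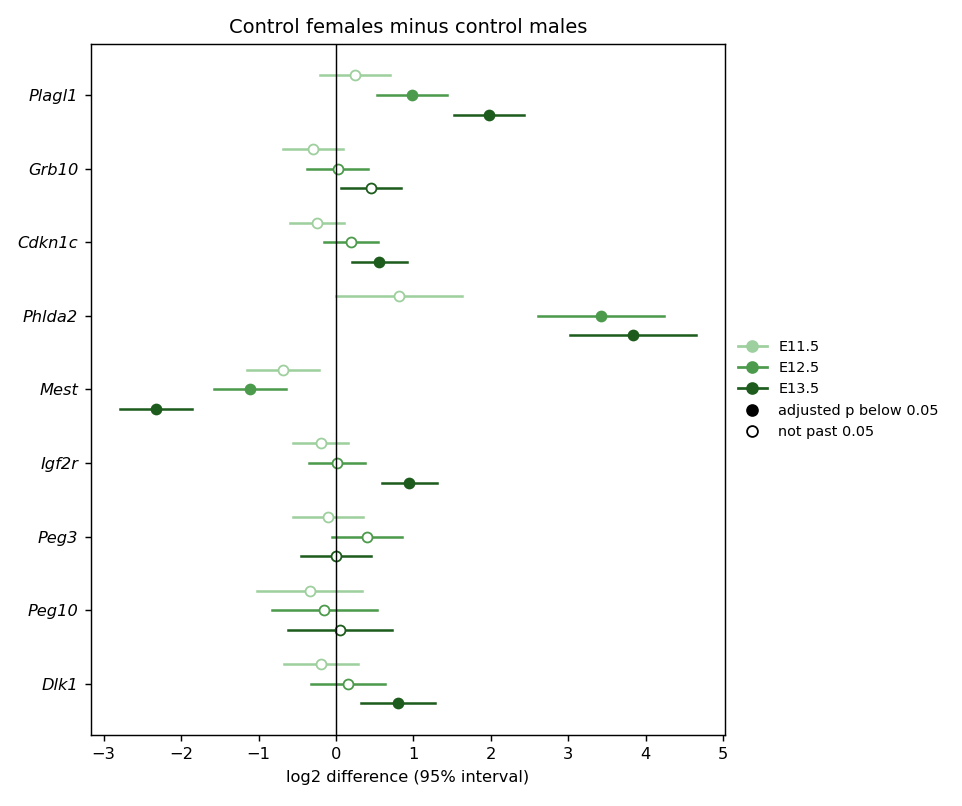
Difference in log2 signal, control females minus control males (horizontal axis), for each growth gene (vertical axis) at E11.5, E12.5 and E13.5. Points are limma estimates from 3 against 3 arrays, bars their 95% intervals and filled points have an adjusted p below 0.05; Phlda2 reaches 3.84 and Mest -2.33 at E13.5.

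The change of the sex difference between stages was tested after its levels had been seen. Between E11.5 and E12.5 it was called for Phlda2 alone of the 9 genes (2.61 ± 0.56; limma adjusted p = 0.00793), against 3.34% of all genes. Between E12.5 and E13.5 it was called for Mest (-1.21 ± 0.32, 0.0224) and Igf2r (0.94 ± 0.25, 0.0217), against 6.45%. Over both days together 5 were called against 5.28%: Phlda2 (3.03 ± 0.56, 0.00143), Plagl1 (1.72 ± 0.31, 0.00108), Mest (-1.64 ± 0.32, 0.00242), Igf2r (1.15 ± 0.25, 0.00521) and Cdkn1c (0.81 ± 0.24, 0.0482). Without replicate 3 of the E12.5 females Plagl1 also passed between E11.5 and E12.5 (1.08, 0.017). Without replicate 2 of the E12.5 females Plagl1 (1.34, 0.00241) and Dlk1 (0.96, 0.0458) also passed between E12.5 and E13.5. Over both days Dlk1 gave 0.99 (0.0762), and passed with array weights (0.0189), with only those groups in the fit (0.00203) and without the E12.5 female arrays (0.0145). The Cdkn1c call was lost in 13 of 19 alternatives, 11 of which left out 1 array; the others had no filter on low signals (0.0554) or quantile normalization (0.0534). The arrays were any array of control E11.5, any E13.5 male array and female replicates 1 and 2 of E13.5 (adjusted p = 0.0552 to 0.134). Mest between E12.5 and E13.5 was lost without replicate 1 of either sex at E12.5 or replicate 2 of either sex at E13.5 (0.0532 to 0.0807). Igf2r in that interval was lost without female replicate 1 of E12.5 (0.0587) or 2 of E13.5 (0.0595).

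Genotype and sex can be set side by side for these genes. E12.5 female Rnf2delta arrays read 5.27 to 5.80 for Plagl1, where E13.5 control females read 5.14 to 5.69, and 4.76 to 5.13 for Cdkn1c, where E13.5 control females read 4.60 to 4.96. For Igf2r, E12.5 female Rnf2delta arrays read 5.76 to 6.14 and E13.5 control females 6.44 to 6.63, with no overlap. The Rnf2delta arrays lay above E13.5 control females without overlap for Grb10 (3.70 to 3.74 against 2.99 to 3.33) and Peg10 (2.69 to 3.97 against 2.25 to 2.465). The same held for Mest (4.96 to 5.56 against 4.18 to 4.95). Phlda2, Peg3 and Dlk1 overlapped. Mest was 5.15 on average in E11.5 Rnf2delta females and 5.23 in E11.5 control males, whose arrays ran from 4.89 to 5.83. At E12.5 the Mest means were 5.28 in Rnf2delta females and 6.075 in control males. These pairs of groups were not tested against each other. How many of all genes separate them in this way was not counted, so these separations have no background.

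Ordered by group mean, the highest of the 10 groups was E12.5 Rnf2delta females for 6 genes: Plagl1 (5.56 ± 0.27, SD, n = 3), Grb10 (3.72 ± 0.02), Cdkn1c (4.97 ± 0.19), Phlda2 (8.14 ± 0.64), Peg10 (3.41 ± 0.66) and Dlk1 (4.52 ± 0.37). Mest was highest in E13.5 control males (6.89 ± 0.15), Igf2r in E13.5 control females (6.52 ± 0.10) and Peg3 in E11.5 control males (7.74 ± 0.53). The share of all genes that were highest in each group was not counted, so these counts have no background. Most neighbours in these orders did not differ beyond their spread. Of the 9 steps from one group to the next, the gap exceeded the larger SD of the pair in 4 for Mest, 3 each for Plagl1 and Phlda2, 1 each for Grb10, Cdkn1c, Igf2r, Peg3 and Peg10, and 0 for Dlk1. For Phlda2 the largest step, 1.29, lay between E11.5 control males (5.59) and E12.5 Rnf2delta males (4.30). For Grb10 the single step, 0.47, lay between E11.5 Rnf2delta males and E13.5 control females; every control group and E12.5 Rnf2delta males lay below it. For Cdkn1c the single step, 0.39, lay between E13.5 control males and E12.5 control females; all 4 Rnf2delta groups and both E13.5 groups lay above it.

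Over the 10 group means, each of 3 arrays, the genes fell into partly different patterns (Pearson's r as a description). Both genes of a pair were read on the same arrays. Grb10 and Peg10 gave 0.90, Plagl1 and Phlda2 0.88, and Cdkn1c and Dlk1 0.84, whereas Phlda2 and Mest gave -0.81. The genes most like each were picked as the 3 highest correlations among genes tested. They were Cd82, Scd1 and Rassf2 for Plagl1 (0.97, 0.97 and 0.97), Smarca5, Tmem108 and Gpc3 for Grb10 (0.93, 0.92 and 0.92) and Panx1, Mapk9 and Cntd1 for Cdkn1c (0.97, 0.97 and 0.95). Phlda2 was nearest to Asic2, Zfp462 and Id3 (0.98, 0.97 and 0.96), Mest to Pmaip1, Ppif and Tgif1 (0.97, 0.96 and 0.96) and Igf2r to Ryr2, Mtss2 and Cox7a1 (0.97, 0.96 and 0.96). Peg3 was nearest to 4930503L19Rik, Tle6 and Drd2 (0.97, 0.94 and 0.93), Peg10 to Spats2, Clip2 and Cox8c (0.95, 0.94 and 0.92) and Dlk1 to Smarcd3, Tex13b and Reln (0.95, 0.94 and 0.94).

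Other imprinted genes were read from a list of 62, of which 53 had a probe set and 48 were tested. In the mean of the 4 genotype comparisons 7 of the 48 rose and 2 fell (limma), against the 10.3% of all genes called. Their median difference was 0.06, against 0.63 for the growth genes. Both lists were chosen with earlier results of these data known, so these medians do not test growth genes against other imprinted genes. Sfmbt2, a Polycomb-group protein gene needed for the placenta, rose by 0.89 ± 0.10 (SE; adjusted p = 4.42e-07), Zdbf2 by 0.70 ± 0.11 (6.84e-05), Cd81 by 0.54 ± 0.11 (0.000901), Meg3 by 0.45 ± 0.10 (0.00417) and the amino acid transporter gene Slc38a4 by 0.44 ± 0.14 (0.0452). Usp29, a neighbour of Peg3, fell by 0.42 ± 0.12 (0.0286). Over the other alternatives that kept all arrays, 6 to 8 rose and 1 or 2 fell.

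By comparison, Sfmbt2 was the 1 of these 48 genes called in E11.5 females (0.92 ± 0.21; limma adjusted p = 0.0301), against 0.553% of all genes, and in E11.5 males (0.87 ± 0.21, 0.038), against 0.718%. Over the alternatives that kept all arrays of the comparison, 1 or 2 were called in E11.5 females and 0 to 2 in E11.5 males. E12.5 males had 3, all higher, against 0.962%: Zdbf2 (0.97), Sfmbt2 (0.85) and Dio3, the thyroid hormone inactivating deiodinase (0.67). Over the same alternatives 2 to 4 rose in E12.5 males and 0 or 1 fell. E12.5 females had 5, all higher, against 9.89% of all genes, a share near the background: Slc38a4 (0.95), Sfmbt2 (0.94), Zdbf2 (0.75), Igf2, the main fetal growth factor of this group (0.63), and Inpp5f (0.52). With array weights 0 of the 48 were called in E12.5 females, and likewise 0 with only those groups in the fit. Beside Phlda2 on chromosome 7, Slc22a18 was higher in control females than in males by 0.77 ± 0.20 at E12.5 (0.00758) and 1.09 ± 0.20 at E13.5 (0.000316). Nap1l4, on the other side, was lower in females by 0.56 ± 0.15 at E12.5 (0.00731). These neighbours were picked after their values were seen.

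Of 15 genes that protect or erase imprints, 14 were tested and Dnmt3l did not pass the filter. In the mean genotype comparison 4 rose and 1 fell (limma), against 10.3% of all genes. Uhrf1, which brings the maintenance methyltransferase to replicated DNA, rose by 0.94 ± 0.13 (SE; adjusted p = 5.28e-06), Dnmt3b by 0.58 ± 0.10 (0.000205), Dnmt3a by 0.39 ± 0.07 (0.000279) and Setdb1 by 0.22 ± 0.07 (0.0307). Dppa3, which shields methylation in the egg and zygote, fell by 0.29 ± 0.07 (0.00819). The maintenance enzyme gene Dnmt1 gave 0.11 (0.411), Tet1 -0.04 (0.844) and the imprint-protecting zinc finger gene Zfp57 0.18 (0.325).

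**Figure D4:**
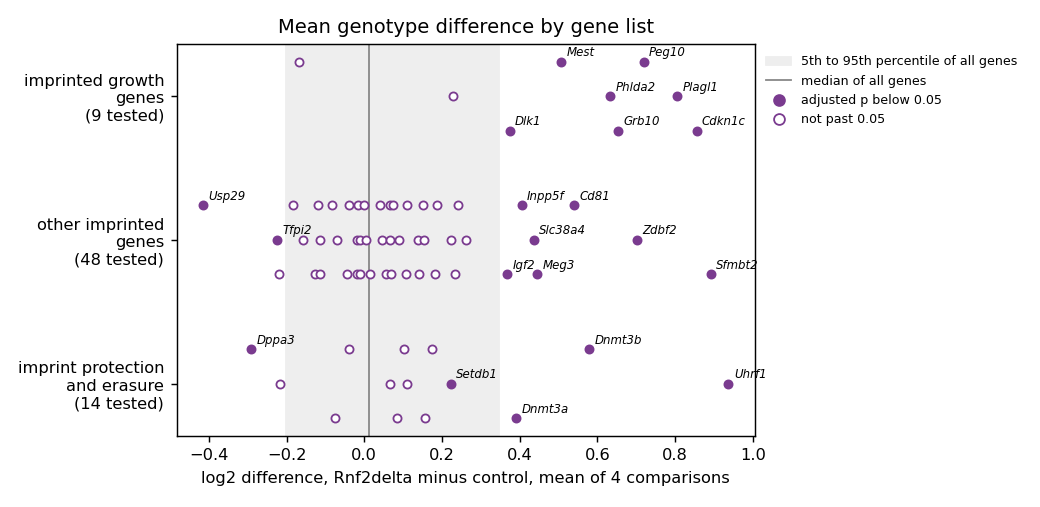
Log2 difference between Rnf2delta and control, averaged over the 4 comparisons (horizontal axis), for 9 growth genes, 48 other imprinted genes and 14 genes that protect or erase imprints (rows; vertical offsets only separate points). Filled, named points have a limma adjusted p below 0.05, the grey band spans the 5th to 95th percentile of all genes (-0.20 to 0.35), and the 7 named growth genes lie to its right. The lists were chosen with earlier results of these data known.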

How the data were processed

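The authors deposited 1 log2 signal for each of 34760 probe sets on 30 Affymetrix arrays. Per the submitters' processing notes, the tools were affy 1.36 and R 2.15; how background was corrected, how probes were summarised and which genome build applied is not given in the sources used here. Array medians lay between 2.52 and 2.66, so the values were taken as normalized. Probe sets with 1 symbol (21640, against 1321 with several and 11799 with none) were named from the platform annotation, updated through RefSeq (21553 by Entrez identifier), and the set with the highest mean stood for a gene. Genes above the 40th percentile on at least 3 arrays were tested.

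All 30 arrays entered a single limma model (version 3.58.1 under R 4.3.3) that gave each group its own mean and left 20 residual degrees of freedom; comparisons were its contrasts, two-sided, with p-values adjusted by Benjamini-Hochberg over all genes tested and a threshold of 0.05. All values are differences of log2 signal with their standard error; the number of arrays limits the precision, and low signals compress differences. The fit was tested on simulated data. Alternatives were array weights, only the compared groups, no filter, the mean of all probe sets, quantile normalization, replicate blocks, no E12.5 female arrays and each array left out. The sex-by-stage tests, a block within stage and sex and the mean of 3 comparisons were added after seeing the data. The genes and lists were chosen with earlier results of these data known. Genes named beyond the 10 were Rnf2, Ring1, markers and the 3 genes most correlated with each. Up to 6 called genes of either list were also named for a genotype comparison. Slc22a18, Nap1l4, Dnmt1, Tet1, Zfp57 and Dnmt3l were named outside this rule. Of 33 same-numbered pairs of arrays 7 deviated together (correlation over 0.1, range -0.14 to 0.29). Only 1 of these joined the sexes of E11.5 controls (0.109), and the rest joined control and Rnf2delta arrays of 1 stage and sex. They were 0.147 in E11.5 females, 0.104 to 0.16 in E11.5 males, and 0.184 and 0.293 in E12.5 males. The main fit did not use this numbering. All 3 pairs deviated together in the E11.5 male genotype comparison only, where the block changed no call of these genes.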

Additional observations from a re-analysis of the deposited data

Results flagged for a closer look

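The female minus male difference in control germ cells changed between stages for 5 of the growth genes, by a limma test of the change itself that was added after the levels had been seen. Between E11.5 and E12.5 the change was 2.61 for Phlda2 (log2 scale; adjusted p = 0.00793). Between E12.5 and E13.5 it was -1.21 for Mest (0.0224) and 0.94 for Igf2r (0.0217). Between E11.5 and E13.5 it was 3.03 for Phlda2 (0.00143), 1.72 for Plagl1 (0.00108), -1.64 for Mest (0.00242), 1.15 for Igf2r (0.00521) and 0.81 for Cdkn1c (0.0482). The E12.5 value rests on female arrays that stood apart from the other 24. The change from E11.5 to E13.5 does not use their levels, but its standard error uses the spread shared by all groups. Over all genes 802 were called for that change, and 1505 without the E12.5 female arrays.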

How the results depend on the processing

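Of 37 calls of a growth gene in a comparison, 18 held in each alternative run, and 0 of 657 alternative values turned in direction; 101 lost the threshold. The counts of the 9 genes called moved as follows, with their causes not tested. With array weights 2 were called in E11.5 males, 2 in E12.5 females and 2 from E12.5 to E13.5 in males. With the model fitted to those groups alone 0 were called in E12.5 females and 1 from E12.5 to E13.5 in males. Without the E12.5 female arrays 2 were called in E12.5 males, 1 from E12.5 to E13.5 in males and 4 in the mean genotype comparison. With a replicate block 1 was called from E11.5 to E12.5 in males, where Mest was lost (adjusted p = 0.05), and Plagl1 was lost in E11.5 females (0.0534). The pairing by number changed no other count by over 1.5 times; Cdkn1c in E11.5 females was lost with a block within stage and sex (0.104). With a replicate block Dlk1 passed in E12.5 females (0.0361, and 0.0214 within stage and sex), from E12.5 to E13.5 in females (0.0326) and in the sex difference by stage over both days (0.0402).

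Leaving out each array in turn gave 0 to 2 genes in E11.5 females, 0 to 1 in E11.5 males, 3 to 5 in E12.5 females, 1 in E12.5 males and 5 to 8 in the mean. It gave 0 in each test of genotype by sex or stage. By stage in controls it gave 0 to 1 and then 3 to 4 in females, and 0 to 1 and then 0 in males. By sex it gave 0, 3 and 4 to 6 at the 3 stages. For the change of the sex difference it gave 1 to 2 between E11.5 and E12.5, 0 to 4 between E12.5 and E13.5 and 4 to 5 over both days.

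Over all genes, leaving out each array gave 39 to 62 calls in E11.5 females, 50 to 99 in E11.5 males, 843 to 1925 in E12.5 females and 73 to 150 in E12.5 males. It gave 7 to 313 for genotype by sex at E12.5 (313 without control E12.5 female replicate 2) and 4 to 126 by stage in females (126 without Rnf2delta E12.5 female replicate 3). Stage changes in males gave 104 to 287 and 60 to 150, and sex at E11.5 gave 4 to 23. The change of the sex difference gave 285 to 858, 533 to 1318 and 491 to 704.

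Over all genes, the 1502 calls in E12.5 females were 254 with array weights and 54 with only those groups in the fit. Calls in E11.5 females (84), E11.5 males (109) and E12.5 males (146) were 157, 344 and 285 with array weights and 151, 228 and 253 without the E12.5 female arrays. The 45 calls of genotype by sex at E12.5 and 22 by stage in females were 5 and 6 with array weights and 1 and 0 with only those groups. For sex at E12.5, 2892 became 1876 and 1150; for the stage changes in females, 2853 became 1604 and 926, and 3309 became 2184 and 1461. For stage changes in males, 397 became 1241 with array weights, 781 with only those groups and 907 without the E12.5 females, and 167 became 456 and 330 (first and last). Sex at E11.5 went from 38 to 117 and 86. Low signal limits Peg10, which lay below the 40th percentile of its array on all 3 E12.5 female control arrays, and Grb10, whose control levels were 2.38 to 3.59.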
